A study of Homo sapiens with 5 samples.

Results

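NADH:ubiquinone oxidoreductase, complex I of the mitochondrial respiratory chain, was followed through ribosome footprints of its nuclear genes in HAP1 cells with and without METTL18. Members were all genes of the deposited count table whose symbol begins with NDUFA, NDUFB, NDUFC, NDUFS or NDUFV, 1 row per symbol. There were 42 members among 14042 symbols: 7 core subunits, 26 accessory subunits, 7 assembly factors of the NDUFAF series, NDUFA4, which bears a complex I name but is now counted with complex IV, and the read-through gene NDUFC2-KCTD14. HAP1 is an established near-haploid human line derived from a chronic myeloid leukaemia line. The 2 groups were wild type (n = 2 libraries) and METTL18 knockout (n = 3 libraries), with no treatment named in the labels. METTL18 is a histidine methyltransferase of the large-subunit ribosomal protein RPL3. The labels give neither the kind of mutation nor whether the knockout libraries come from 1 clone or from separate cultures, and the p-values reflect no more than library-to-library spread, possibly of technical origin.

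Complex I is an L-shaped assembly that passes electrons from NADH to ubiquinone and pumps protons across the inner mitochondrial membrane. Its core subunits, shared with bacteria, carry the flavin, the iron-sulfur clusters and the proton channels. Those of the matrix arm are encoded in the nucleus and those of the membrane arm in mitochondrial DNA. Accessory subunits surround the core and are needed for its assembly and stability, and assembly factors bind intermediates but are absent from the finished enzyme. The mitochondrially encoded subunits, NDUFA3, NDUFA6, NDUFB1, NDUFB2, NDUFAF8 and NDUFA4L2 were not analysed here.

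A footprint is the piece of mRNA covered by 1 ribosome, so a count reflects how much mRNA there was and how densely it was translated, with no means here to split them. Levels are given as CPM, depth-normalised counts after TMM scaling, and each fold change is knockout over wild type on the log2 scale with its standard error (SE). Adjusted p-values come from edgeR's quasi-likelihood test over all 11335 genes tested, with Benjamini-Hochberg adjustment, and a gene is said to rise or fall where this p was under 0.05. Library totals were 4887380 and 5302160 counts in wild-type and 16339574 to 17629199 in knockout cells, so depth runs with the groups. METTL18 fell from 5.7 ± 0.211 to 2.1 ± 0.117 CPM (mean ± SD, as throughout, log2 fold change -1.44, adjusted p = 2e-06), and footprints remained on it in all 3 knockout libraries. BCR, a partner of the fusion gene of the leukaemia of origin, stood at 6.68 ± 0.64 CPM in wild-type cells and 8.1 ± 0.392 CPM in knockout cells, and ABL1, the other partner, rose from 1.12 ± 0.554 to 4.79 ± 0.31 CPM. Of 8 blood-cell markers, CD33 had 0 counts in all libraries, CD34 had 2 in each wild-type library and 0 in knockout cells, KIT fell from 11.1 ± 1.15 to 7.81 ± 0.687 CPM, and the other 5 were not analysed here. Expression had shifted widely: 74.4% of tested genes passed, 37.8% as higher and 36.6% as lower in knockout cells. Footprints of 28 to 32 bases were taken from monosomes after nuclease digestion in the presence of cycloheximide, which holds ribosomes in place.

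The medians of the core and of the accessory subunits stood on different sides of 0, with single genes of each on both sides. Of 7 core subunits, 4 fell, 1 rose and 2 did not pass, with a median log2 fold change of -0.59. Of 26 accessory subunits, 18 rose, 6 fell and 2 did not pass, with a median of 0.41. The 7 NDUFAF assembly factors were split, with 2 higher, 2 lower, 3 not passing and a median of -0.01. In all, 22 of 41 tested members rose (53.7%, beside 37.8% of all genes) and 12 fell (29.3%, beside 36.6%), and the median over all genes tested was 0.02. The share of members called in either direction was 82.9%, beside 74.4% of all genes. The libraries of the groups did not overlap in 23 members that were higher and 13 that were lower in knockout cells, beside 42.5% and 41% of all genes (83.5% in either direction). When a fold above 1.5 was required (glmTreat in edgeR), 9 members remained higher and 4 lower, beside 17.7% and 18.8% of all genes. When library totals replaced TMM factors, the median of all genes moved from 0.02 to -0.25, and 17 members rose while 19 fell, beside 26.3% and 49.4% of all genes. With that scaling the median of all 33 subunits turned from 0.23 to -0.04, that of the core subunits was -0.86 and that of the accessory subunits 0.14. The core median lay equally far below the accessory median with either scaling, because a change of scaling shifts all genes alike. Direction below is relative to the TMM scale, and where total counts turn a named member it is said there. Counts of called genes in the lists below are to be read beside these same shares of all genes.

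**Figure D1:**
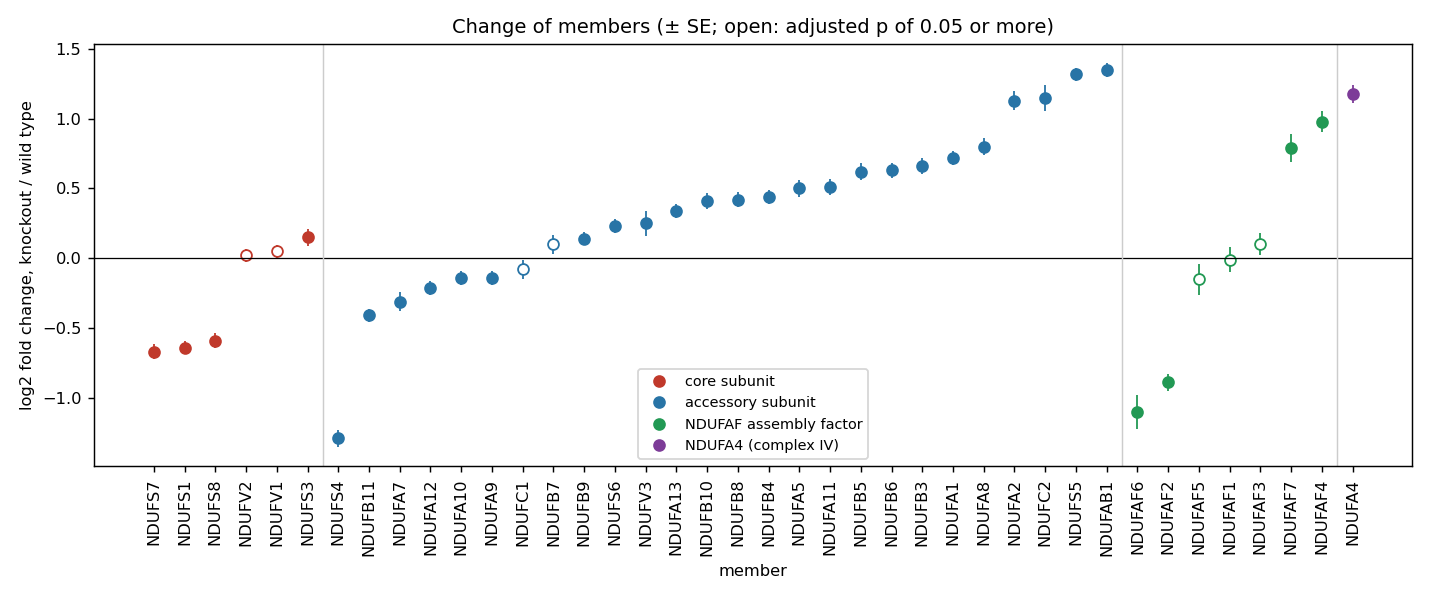
Log2 fold change (knockout over wild type, vertical axis) of each plotted member with its SE as a bar, grouped as core subunits (red), accessory subunits (blue), NDUFAF assembly factors (green) and NDUFA4 (purple); open circles did not pass. Core values run from -0.67 to 0.15 and accessory values from -1.29 to 1.35.

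The starts of these genes were compared for short motifs of factors known to act on respiratory chain genes. RefSeq promoter windows (build GRCh38.p14, 250 bases before to 50 after a start) matched 34 members by symbol and 8835 genes tested in all. On either strand, ATGGCGG, the core of the YY1 motif, occurred in 15 of the 34 members (44.1%), beside 12.8% of the tested genes with a window. It lay within the first 50 transcribed bases of 12 members (35.3%, beside 7.8%). GCATGCG, the core of the motif of nuclear respiratory factor NRF1, occurred in 7 members (20.6%, beside 7.7%), and it overlaps its own reverse complement in the full palindromic motif. CCGGAAG, the core bound by ETS factors such as GABP, occurred in 6 members (17.6%, beside 22.3%). ATGGCGG was in the windows of 5 of 6 core subunits, 9 of 22 accessory subunits and 1 of 6 assembly factors, and in 7 of the 10 matched members that fell and 7 of the 17 that rose. The shares among all genes that fell and all that rose were not computed, and a link with direction was not tested.

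In at least 6 members the letters ATGGCGG are the first coding bases themselves. They are the start codon followed by the alanine codon GCG and a G. Genomic bases were compared with the spliced coding sequence, so a start close to an intron would be missed. Those 6 starts are shown with NDUFS7, the core subunit with the largest fall, whose match lies downstream of its transcription start as well. Whether the NDUFS7 match is also a coding start was not settled by this comparison. All lines give the gene strand, 5′ to 3′, with the 7 matched letters in capitals and 10 bases on each side.
NDUFS3: tctgagtaacATGGCGGcggcggcggt
NDUFS4: ctgcagcaagATGGCGGcggtgtcaat
NDUFS6: gcggcgcaaaATGGCGGcggcgatgac
NDUFA9: gtgggaaaagATGGCGGctgccgcaca
NDUFB8: gaaggtgaagATGGCGGtggccagggc
NDUFB11: accatctgtcATGGCGGctgggctgtt
NDUFS7: cgaggccaagATGGCGGtgctgtcagg
These stretches lie at chr11:47579082-47579108 (NDUFS3), chr5:53560653-53560679 (NDUFS4), chr5:1801408-1801434 (NDUFS6), chr12:4649117-4649143 (NDUFA9), chr10:100529835-100529861 (NDUFB8), chrX:47144663-47144689 (NDUFB11) and chr19:1383917-1383943 (NDUFS7). NDUFB8, NDUFB11 and no other of the 7 are on the minus strand. The same letters occur in genes that fell (NDUFS4, NDUFB11, NDUFA9, NDUFS7) and genes that rose (NDUFS3, NDUFS6, NDUFB8), and a match is a description of the sequence, not of binding.

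The NRF1 letters were found in NDUFA5, NDUFA8, NDUFAF4, NDUFAF5, NDUFB4, NDUFS6 and NDUFS7. In NDUFA8 and NDUFAF5 they begin 3 bases before the transcription start. A core subunit, 3 accessory subunits and an assembly factor are shown, because NRF1 is the classic activator of nuclear respiratory genes.
NDUFS7: ttccggtttcCGCATGCgctccgagcc
NDUFS6: agaagccgtgCGCATGCgttagcgcta
NDUFB4: gagcacttcgCGCATGCgcatatcacc
NDUFA8: ttgccggatgCGCATGCgcaggcgccg
NDUFAF5: gccgcgctggCGCATGCgcacaaaaag
Capitals mark the first match in each window, here read as its reverse complement, at chr19:1383823-1383849, chr5:1801352-1801378, chr3:120596168-120596194, chr9:122159766-122159792 and chr20:13785015-13785041 in the order shown, with NDUFA8 on the minus strand. The factors were measured too: NRF1 went from 30.8 ± 1.42 to 39.5 ± 2.58 CPM (log2 fold change 0.35) and YY1 from 125 ± 0.703 to 145 ± 7.92 CPM (0.21), both past the threshold on the TMM scale. With total counts 5 of the 10 tested regulators of respiratory chain genes rose rather than 8, and rises as small as these depend on the scaling.

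NDUFS1, NDUFS7 and NDUFS8, iron-sulfur core subunits between the flavin end and ubiquinone, fell by like amounts. Positions here and below are those of the counted transcript on hg38. NDUFS1 (transcript ENST00000233190, chromosome 2, 206114817 to 206159603, minus strand), the largest subunit, which passes electrons from the flavin through its iron-sulfur clusters, stood at 459 and 472 CPM in wild-type and 300.2, 317 and 281 CPM in knockout libraries (log2 fold change -0.64, SE 0.046, adjusted p = 5.1e-16). Every knockout library lay below both wild-type libraries. NDUFS7 (transcript ENST00000233627, chromosome 19, 1383631 to 1395589, plus strand), the carrier of the last iron-sulfur cluster before ubiquinone, stood at 185 and 175 CPM in wild-type and 113, 110.3 and 116 CPM in knockout libraries (log2 fold change -0.67, SE 0.0531, adjusted p = 9.67e-15). NDUFS8 (transcript ENST00000313468, chromosome 11, 68030627 to 68036644, plus strand), which holds the pair of clusters before it, stood at 175 and 162 CPM in wild-type and 111, 107 and 118 CPM in knockout libraries (log2 fold change -0.59, SE 0.0556, adjusted p = 1.84e-12). In NDUFS7 and NDUFS8, again, the groups did not overlap. These 3 genes kept their calls under every alternative run except a required fold above 1.5, which of these left only NDUFS7.

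The core subunits of the flavin end did not pass the test. NDUFV1 (transcript ENST00000322776, chromosome 11, 67606852 to 67612506, plus strand), which binds NADH and the flavin, stood at 343 and 316 CPM in wild-type and 346, 351 and 323 CPM in knockout libraries (log2 fold change 0.05, SE 0.0475, adjusted p = 0.39). NDUFV2 (transcript ENST00000318388, chromosome 18, 9102630 to 9134345, plus strand), its iron-sulfur partner, stood at 239 and 225 CPM in wild-type and 224, 245 and 237 CPM in knockout libraries (log2 fold change 0.02, SE 0.0499, adjusted p = 0.702). In both genes the 2 groups overlapped, and total-count scaling turned them lower (-0.23 and -0.25, both past the threshold). NDUFS3 (transcript ENST00000263774, chromosome 11, 47579010 to 47584562, plus strand), a structural subunit at the base of the matrix arm, stood at 95.1 and 107 CPM in wild-type and 106, 111 and 119 CPM in knockout libraries (log2 fold change 0.15, SE 0.0631, adjusted p = 0.0276). Its groups overlapped although it passed as higher, and the call was lost without wild type replicate 1 (0.07), without METTL18 knockout replicate 3 (0.11), with DESeq2 (0.14), with thinned knockout libraries (0.14), with a mean CPM of at least 10 (0.09) and with upper-quartile factors (0.11), and the value turned with total counts (-0.12). Of the windows of 28 bases in the NDUFV2 coding sequence, 54.7% occur also in an annotated pseudogene, and for the other 6 core subunits the share was 0%. Most windows of NDUFV2 (100%), NDUFA7 (100%), NDUFA13 (98.5%), NDUFB8 (91%), NDUFA9 (88.7%) and NDUFA11 (72.5%) occur in another annotated gene of any kind. None of these windows lies in the coding sequence of another counted row. Because the sources used here do not say how such reads were counted, these levels are less certain.

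**Figure D2:**
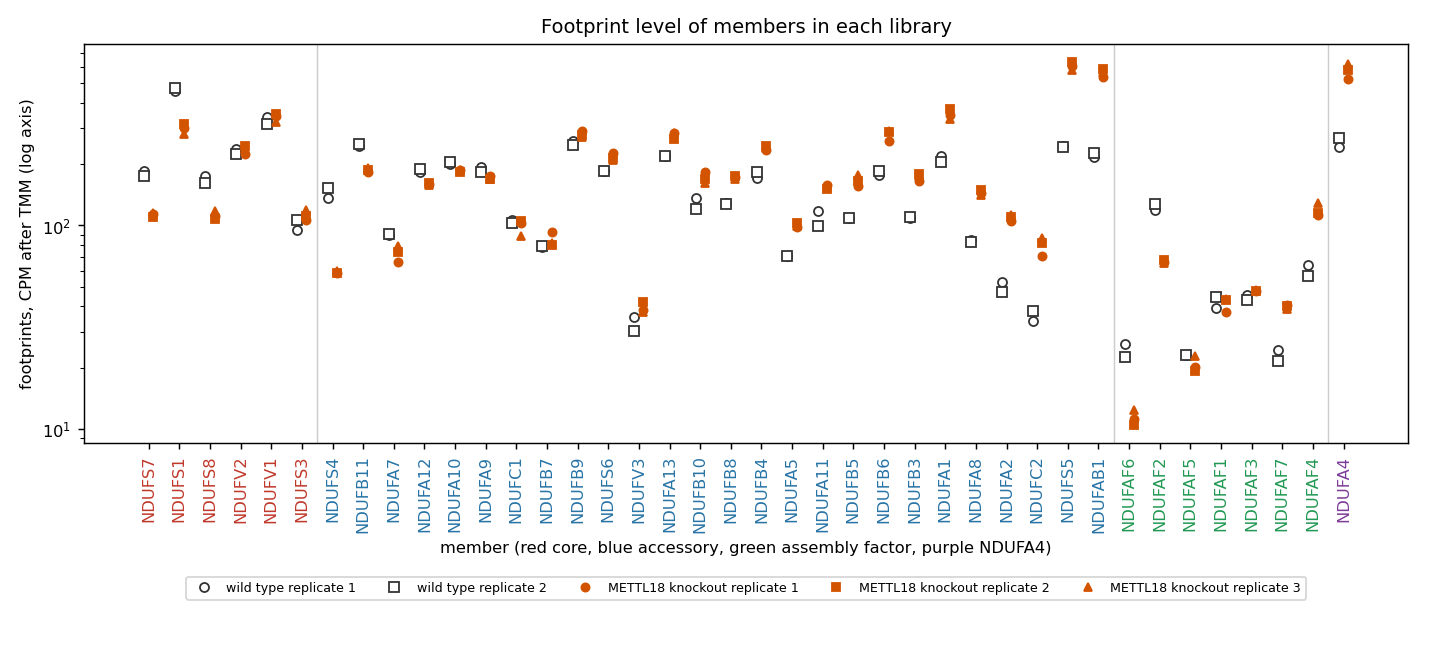
Footprint level (CPM after TMM, log axis) of each plotted member in each of the 5 libraries, wild type open and knockout filled, with members ordered by change within their role. The largest separations are NDUFS4 and NDUFAF6 below their wild-type values and NDUFAB1 and NDUFS5 above them.

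The 6 largest rises among accessory subunits were in coding sequences of 210 to 516 bases. NDUFAB1 (transcript ENST00000007516, chromosome 16, 23581002 to 23596356, minus strand), the mitochondrial acyl carrier protein, which sits in both arms of complex I and also serves fatty acid and iron-sulfur cluster synthesis, stood at 218 and 226 CPM in wild-type and 538, 589 and 569.6 CPM in knockout libraries (log2 fold change 1.35, SE 0.0481, adjusted p = 1.89e-26). NDUFS5 (transcript ENST00000372969, chromosome 1, 39026318 to 39034636, plus strand), a membrane-arm subunit on the intermembrane side, stood at 246 and 242 CPM in wild-type and 608, 635 and 583 CPM in knockout libraries (log2 fold change 1.32, SE 0.0468, adjusted p = 1.54e-26). Even the lowest knockout library of each stood far above the higher wild-type library. NDUFC2 (transcript ENST00000281031, chromosome 11, 78068304 to 78080219, minus strand), a membrane-arm subunit, stood at 33.8 and 38.2 CPM in wild-type and 70.6, 82.1 and 87.1 CPM in knockout libraries (log2 fold change 1.15, SE 0.0914, adjusted p = 1.79e-13). NDUFA2 (transcript ENST00000252102, chromosome 5, 140645285 to 140647785, minus strand), a small matrix-arm subunit with a thioredoxin-like fold, stood at 52.5 and 47 CPM in wild-type and 105, 109.9 and 113 CPM in knockout libraries (log2 fold change 1.13, SE 0.0705, adjusted p = 4.2e-18). No knockout library of these 2 genes fell within the wild-type range.

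NDUFA8 (transcript ENST00000373768, chromosome 9, 122144058 to 122159819, minus strand), like NDUFS5 a cysteine-rich intermembrane-space protein imported through CHCHD4, stood at 84.7 and 82.8 CPM in wild-type and 144, 150.2 and 142 CPM in knockout libraries (log2 fold change 0.80, SE 0.0599, adjusted p = 1.86e-15). NDUFA1 (transcript ENST00000371437, chromosome X, 119871487 to 119876662, plus strand), a short single-pass membrane protein, stood at 221 and 205 CPM in wild-type and 347, 371 and 332 CPM in knockout libraries (log2 fold change 0.72, SE 0.0514, adjusted p = 3.75e-16). Both groups were again apart. In NDUFS5, 28.9% of the 28-base windows recur in annotated pseudogenes, and in NDUFC2, 86.4% are shared with the row of NDUFC2-KCTD14. That read-through row held 0 counts in wild-type and 2 in knockout cells, 1 each in replicates 2 and 3, and was the only member not tested. Of NDUFAB1, NDUFA2, NDUFA8 and NDUFA1 no window recurs in an annotated pseudogene.

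The 6 accessory subunits that fell were led by NDUFS4. NDUFS4 (transcript ENST00000296684, chromosome 5, 53560635 to 53683340, plus strand), a late-joining matrix-arm subunit in which mutations cause Leigh syndrome, stood at 137 and 152 CPM in wild-type and 58.8, 58.6 and 59.6 CPM in knockout libraries (log2 fold change -1.29, SE 0.0602, adjusted p = 2.27e-22), the largest fall among the members. It kept this call under every alternative run, and its 3 knockout libraries were nearly equal. NDUFB11 (transcript ENST00000377811, chromosome X, 47142216 to 47145504, minus strand), an X-linked membrane-arm subunit, stood at 245 and 251 CPM in wild-type and 183, 188 and 191 CPM in knockout libraries (log2 fold change -0.41, SE 0.048, adjusted p = 5.74e-10). NDUFA7 (transcript ENST00000301457, chromosome 19, 8311284 to 8321396, minus strand), in the matrix arm, stood at 89.4 and 91.1 CPM in wild-type and 66, 73.8 and 79 CPM in knockout libraries (log2 fold change -0.31, SE 0.0694, adjusted p = 0.00014). For these 3 genes the 2 groups did not overlap.

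Smaller falls were seen in NDUFA12, NDUFA10 and NDUFA9. NDUFA12 (transcript ENST00000327772, chromosome 12, 94971333 to 95003770, minus strand), which joins the matrix arm late, stood at 182 and 189.7 CPM in wild-type and 161, 162 and 159 CPM in knockout libraries (log2 fold change -0.21, SE 0.0506, adjusted p = 0.000275). NDUFA10 (transcript ENST00000252711, chromosome 2, 239957372 to 240025402, minus strand), a nucleoside-kinase-like membrane-arm subunit, stood at 201 and 206 CPM in wild-type and 186, 183 and 186 CPM in knockout libraries (log2 fold change -0.14, SE 0.0492, adjusted p = 0.012). NDUFA9 (transcript ENST00000266544, chromosome 12, 4649107 to 4694317, plus strand), at the joint of the arms, stood at 195 and 182 CPM in wild-type and 175, 169 and 169 CPM in knockout libraries (log2 fold change -0.14, SE 0.0511, adjusted p = 0.012). The call of NDUFA10 was lost without wild type replicate 2 (-0.13) and that of NDUFA9 without wild type replicate 1 (-0.09).

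The other accessory subunits rose by less than NDUFA1 or did not pass. In the distal membrane arm, NDUFB3 rose from 109 ± 1.33 to 173 ± 7.35 CPM (log2 fold change 0.66), NDUFB6 from 181 ± 4.91 to 281 ± 17 CPM (0.63) and NDUFB5 from 108 ± 0.285 to 166 ± 10.9 CPM (0.62). NDUFB4 (0.44), NDUFB8 (0.42) and NDUFB10 (0.41) rose by nearly equal amounts. In the proximal membrane arm, NDUFA11 rose from 108 ± 12.5 to 155 ± 3.39 CPM (0.51) and NDUFA13, also known as GRIM-19, from 219.7 ± 0.626 to 278 ± 11.2 CPM (0.34). In the matrix arm, NDUFA5 rose from 71.1 ± 0.0782 to 100.5 ± 2.41 CPM (0.50) and NDUFS6, a zinc-binding subunit, from 185 ± 0.325 to 218 ± 9.32 CPM (0.23). With total counts the call of NDUFA13 was lost (0.07) and NDUFS6 turned (-0.04, not past the threshold). Annotated pseudogenes hold 52.3% of the windows of NDUFA5, 38.6% each of NDUFB3 and NDUFB4, 17.5% of NDUFB9, 8.1% of NDUFB8 and 4.1% of NDUFB10. The wider sharing of NDUFA11, NDUFA13 and NDUFB8 is given above.

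NDUFV3, a subunit beside the flavin end, counted on a transcript with 324 coding bases, rose from 33 ± 3.77 to 39.4 ± 2.25 CPM (0.25), and the call was lost without wild type replicate 2 (0.14), without METTL18 knockout replicate 2 (0.20), with DESeq2 (0.24) and with a mean CPM of at least 10 (0.19), and total counts turned it (-0.02). NDUFB9 rose from 254 ± 9.38 to 280.5 ± 9.39 CPM (0.14), a call lost without wild type replicate 2 (0.10), with upper-quartile factors (0.10) and with a mean CPM of at least 10 (0.08), and turned to a fall with total-count scaling (-0.13). NDUFB7 stood at 79.1 ± 0.919 CPM in wild-type cells and 84.9 ± 6.89 CPM in knockout cells (log2 fold change 0.10, SE 0.0692, adjusted p = 0.181). NDUFC1 stood at 105 ± 2.54 and 98.9 ± 9.01 CPM (log2 fold change -0.08, SE 0.0665, adjusted p = 0.268). Neither of the last 2 genes passed, but with total counts both did, as lower (-0.17 and -0.35).

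Sorted by arm, the subunits that fell were mostly in the matrix arm. Of 15 matrix-arm subunits, core included, 8 fell, 5 rose and 2 did not pass, with a median log2 fold change of -0.14. Of its 8 accessory subunits, 4 fell and 4 rose, with a median of 0.04. Of 17 membrane-arm subunits, 13 rose, 2 fell and 2 did not pass, with a median of 0.44. Over all genes tested 37.8% rose and 36.6% fell. Median coding length was 630 bases in the matrix arm and 423 in the membrane arm. NDUFAB1, present in both arms, was left out of this sorting. Of the 4 cysteine-rich subunits imported through CHCHD4 (NDUFS5, NDUFA8, NDUFB7 and NDUFB10), 3 rose and 1 did not pass, and CHCHD4 is counted below with the assembly factors. With total counts 2 of the matrix-arm subunits rose and 10 fell, and 11 of the membrane-arm subunits rose and 5 fell. On that scale 26.3% of all genes rose and 49.4% fell. The difference between the arms was not tested.

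Core subunits held a smaller part of the subunit counts in every knockout library. Because the core and accessory sums are counted in the same library, their ratio does not depend on scaling. Core subunits held 0.461 and 0.456 counts per accessory count in wild-type libraries and 0.268, 0.27 and 0.267 in knockout libraries. The gap between the groups was many times the spread within either, a spread that is possibly of technical origin. Core subunits took 0.195% ± 0.00288 of all counts in wild-type cells (SD, n = 2) and 0.128% ± 0.00193 in knockout cells (SD, n = 3). Accessory subunits took 0.425% ± 0.00251 and 0.478% ± 0.00485. The 33 subunits together took 0.624% and 0.616% of counts in wild-type libraries and 0.601%, 0.614% and 0.604% in knockout libraries, a difference of -0.0139 percentage points between group means on raw totals that turned to 0.0997 in CPM after TMM. NDUFS1 made up 8.25% and 8.57% of subunit counts in wild-type and 4.63%, 4.77% and 4.34% in knockout cells. NDUFS5 went the other way, with 4.41% and 4.39% against 9.38%, 9.55% and 8.99%. So did NDUFAB1, with 3.92% and 4.11% against 8.3%, 8.86% and 8.79%. The larger share of accessory subunits on raw totals leans on NDUFS5 and NDUFAB1 and is not a trait of the accessory subunits at large. With 2 libraries against 3 the smallest p of an exact permutation test is 0.1, and none was run on these sums.

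**Figure D3:**
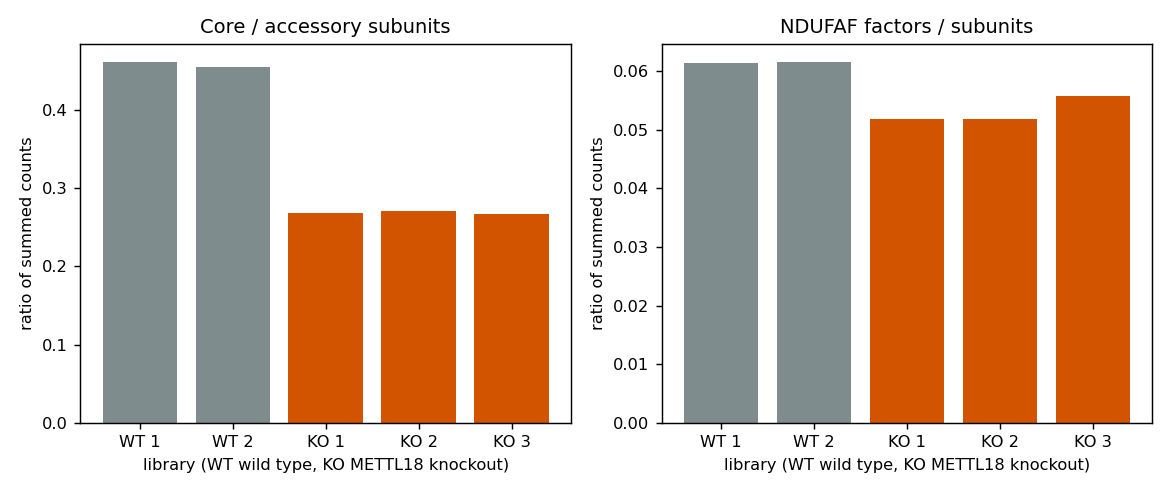
Ratio of summed counts in each library (grey wild type, orange knockout): core over accessory subunits on the left and NDUFAF assembly factors over all subunits on the right, both axes from 0. Knockout bars lie at 0.267 to 0.27 against 0.456 and 0.461 on the left, and between 0.0518 and 0.0558 against 0.0614 and 0.0615 on the right. The lower bars on the right lean on NDUFAF2.

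The assembly factors did not move together. NDUFAF6 (transcript ENST00000396124, chromosome 8, 95024986 to 95058710, plus strand), an early factor, stood at 26.3 and 22.5 CPM in wild-type and 11.2, 10.5 and 12.4 CPM in knockout libraries (log2 fold change -1.10, SE 0.122, adjusted p = 1.03e-10). NDUFAF2 (transcript ENST00000296597, chromosome 5, 60945129 to 61153037, plus strand), a paralogue of NDUFA12 that holds its place until the matrix arm is completed, stood at 119 and 127 CPM in wild-type and 66.4, 67.6 and 65.6 CPM in knockout libraries (log2 fold change -0.89, SE 0.0601, adjusted p = 6.41e-17). Both had every knockout library below every wild-type library. Of the windows of NDUFAF2, 69% recur in an annotated pseudogene, and of those of NDUFAF4, 18.5%. NDUFAF4 (transcript ENST00000316149, chromosome 6, 96889313 to 96897881, minus strand), which works with NDUFAF3 on the matrix-arm intermediate, stood at 64.1 and 56.5 CPM in wild-type and 112, 116 and 129.6 CPM in knockout libraries (log2 fold change 0.98, SE 0.0726, adjusted p = 1.16e-15). NDUFAF7 (transcript ENST00000002125, chromosome 2, 37231666 to 37249160, plus strand), a methyltransferase of complex I assembly, stood at 24.4 and 21.6 CPM in wild-type and 40.7, 40.3 and 38.7 CPM in knockout libraries (log2 fold change 0.79, SE 0.0969, adjusted p = 1.49e-09). The 4 factors that passed also did so with a required fold above 1.5, and all others failed it.

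The other NDUFAF genes did not pass. NDUFAF3 (transcript ENST00000326925, chromosome 3, 49021011 to 49023495, plus strand) stood at 45.6 and 43.2 CPM in wild-type and 47.5, 47.5 and 48.3 CPM in knockout libraries (log2 fold change 0.10, SE 0.079, adjusted p = 0.228), so that NDUFAF4 passed and its partner did not, and total counts turned it lower (-0.17, not past the threshold). NDUFAF1 (transcript ENST00000260361, chromosome 15, 41387349 to 41402444, minus strand), a factor of the membrane arm, stood at 39.2 and 44.6 CPM in wild-type and 37.4, 43.2 and 43.8 CPM in knockout libraries (log2 fold change -0.01, SE 0.0888, adjusted p = 0.916). NDUFAF5 (transcript ENST00000378106, chromosome 20, 13784950 to 13821582, plus strand), a hydroxylase of NDUFS7, stood at 23.2 and 23 CPM in wild-type and 20.3, 19.3 and 23 CPM in knockout libraries (log2 fold change -0.15, SE 0.111, adjusted p = 0.221), with knockout replicate 3 just under the wild-type values. Total-count scaling took NDUFAF1 (-0.28) and NDUFAF5 (-0.42) past the threshold as lower. Summed, the 7 factors held 0.0614 and 0.0615 counts per subunit count in wild-type cells and 0.0518, 0.0518 and 0.0558 in knockout cells. Of these sums, NDUFAF2 alone held 708 of 2032 and 697 of 1853 counts in wild-type libraries. In knockout libraries it held 1006 of 5083, 1101 of 5604 and 1035 of 5697. The lower ratio thus leans on NDUFAF2, 69% of whose windows recur in an annotated pseudogene.

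Complex I assembly factors with other names were read as a further list. Of 14 measured, CHCHD4 included, 8 rose, 4 fell and 2 did not pass, with a median of 0.25. TMEM70, which serves complexes I and V, rose from 48.9 ± 6.09 to 101 ± 3.77 CPM (1.05), and ATP5SL (now DMAC2) from 38 ± 1.49 to 62.1 ± 2.4 CPM (0.71). ACAD9, which forms the membrane-arm assembly complex with NDUFAF1, fell from 93 ± 1.61 to 58.4 ± 2.81 CPM (-0.67). With total-count scaling their median was -0.02, with 5 higher and 6 lower.

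NDUFA4 (transcript ENST00000339600, chromosome 7, 10931951 to 10940256, minus strand), first described as a subunit of complex I and now placed in complex IV, stood at 243 and 268 CPM in wild-type and 525, 581 and 624 CPM in knockout libraries (log2 fold change 1.18, SE 0.0651, adjusted p = 9.14e-12). In 62.5% of its windows the letters recur in annotated pseudogenes. Subunits of the other respiratory complexes are set beside those of complex I. Of 35 nuclear subunits of complexes II to V, NDUFA4 included, 25 rose, 6 fell and 4 did not pass, with a median of 0.66, beside 19, 10 and 4 of 33 and a median of 0.23 for complex I. Where complex II carries its iron-sulfur clusters, SDHB fell from 369 ± 4.25 to 255 ± 6.42 CPM (-0.54), while its membrane anchors SDHC (0.66) and SDHD (0.60) rose. Of complex III, 5 of 8 rose and 3 fell, of complex IV 6 of 9 rose and none fell, and of complex V 12 of 14 rose and 1 fell. With total counts 21 of the 35 rose and 11 fell, with a median of 0.39, beside 14 and 15 of the 33 of complex I. The difference between complexes was not tested.

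Levels of different genes were compared per kilobase of coding sequence. In the finished enzyme the subunits are present in equal number, except NDUFAB1, which sits in both arms. In wild-type cells the density of the 33 subunits ran from 101 (NDUFC2) to 1013 CPM per kb (NDUFA1), a 10.0-fold range, and in knockout cells from 112 (NDUFS4) to 1913 CPM per kb (NDUFS5), a 17-fold range. The SD of log2 density over the 33 subunits was 0.797 and 0.798 in wild-type libraries and 1.05, 1.07 and 1.04 in knockout libraries. Subunits were thus more unequal in each knockout library than in either wild-type library. The 7 core subunits were closer to each other, with SDs of 0.386 to 0.503 over the 5 libraries.

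Core and accessory densities lay close in wild-type cells and apart in knockout cells. The median core density was 246 and 227 CPM per kb in wild-type libraries against accessory medians of 271 and 279. In knockout libraries the core medians were 177, 171 and 181 against 362, 364 and 366. That is a core-to-accessory ratio of 0.907 and 0.813 against 0.489, 0.469 and 0.495. NDUFAB1 stood at 1.76 and 1.88 times the subunit median in wild-type cells and 3.83 to 4.03 times in knockout cells.

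Assembly factors had lower median densities than subunits in every library. Their median was 40.0 and 45.5 CPM per kb in wild-type libraries and 38.2, 44.1 and 44.6 in knockout libraries, which puts the subunit median 5.65 to 7.87 times higher over the 5 libraries. NDUFAF2 and NDUFAF4 nevertheless lay within the range of the subunits in both groups. NDUFAF2 stood higher in wild-type cells, at 243 ± 11.6 CPM per kb, between NDUFB10 (249 ± 22.4) and NDUFV1 (236 ± 13.6), from which it did not differ beyond their spread. NDUFAF4 stood higher in knockout cells, at 227 ± 17.7 CPM per kb beside NDUFC2 (224 ± 23.7) and NDUFA7 (215 ± 19.2), again within their spread. The lowest 4 places were held by NDUFAF1, NDUFAF5, NDUFAF6 and NDUFAF7 in both groups. At the top of the order NDUFA1 (1013 ± 53.3) stood above NDUFS5 (766 ± 8.47) in wild-type cells and below it in knockout cells (1668 ± 94.5 and 1913 ± 81.7 CPM per kb).

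**Figure D4:**
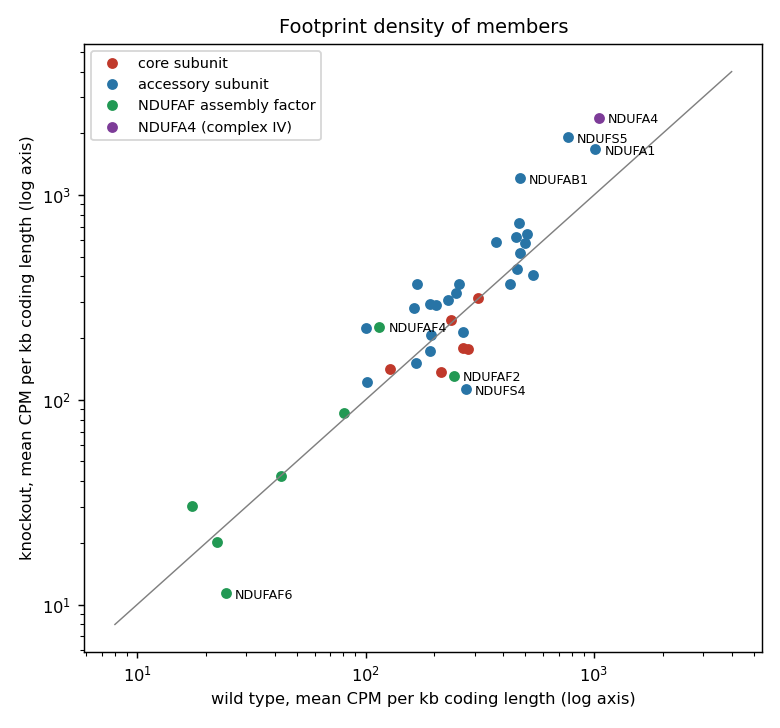
Mean footprint density (CPM per kb of coding sequence, log axes) of each plotted member in wild-type cells (horizontal) and the knockout (vertical), with the line of equal density. Core subunits (red) lie on or under the line except NDUFS3, NDUFV1 and NDUFV2, which sit just above it, and assembly factors (green) fill the lower left except NDUFAF2, NDUFAF3 and NDUFAF4.

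Core and accessory subunits differ in length, and among subunits change ran with coding length. The core coding sequences spanned 630 to 2181 bases and the accessory ones 210 to 1131. Over the 33 subunits, log2 fold change and log2 coding length had a Pearson r of -0.49 and a Spearman rho of -0.54. Within the 26 accessory subunits they were -0.32 and -0.33, and over 11284 tested genes with a coding length -0.13 and -0.17. Within the 7 NDUFAF assembly factors they were 0.03 and 0.0. These are descriptions across genes, which share libraries and are not replicates. Of all genes under 600 bases, 49% rose and 26.5% fell, with a median of 0.23, and of the 24 subunits of that length 18 rose and 4 fell, with a median of 0.43. Between 600 and 1200 bases, 40.3% of all genes rose and 31.5% fell, with a median of 0.10, and of 6 subunits 1 rose and 4 fell. Over 1200 bases, 34.5% of all genes rose and 40.9% fell, with a median of -0.07, and of 3 subunits none rose and 2 fell. Among the shorter core subunits, NDUFS7 (639 bases) and NDUFS8 (630) fell, NDUFV2 (747) did not pass and NDUFS3 (792) rose. The part of length in the difference between core and accessory subunits was not tested.

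**Figure D5:**
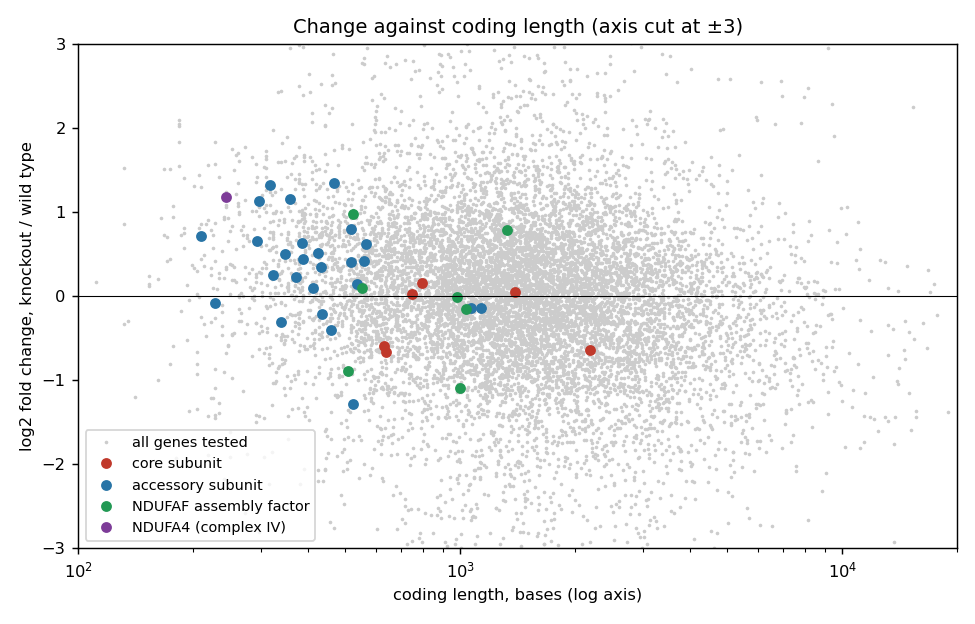
Log2 fold change (knockout over wild type, cut at -3 and 3) against coding length (bases, log axis) for all tested genes (grey) and the members (colours by role). The blue accessory points crowd at 210 to 567 bases, mostly above 0, and NDUFS4 (-1.29) is the lowest of them.

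Genes that supply cofactors to complex I moved both ways. Of 15 genes of mitochondrial iron-sulfur cluster assembly, 8 fell, 6 rose and 1 did not pass, with a median of -0.21. The scaffold ISCU fell from 64.7 ± 1.81 to 31.3 ± 1.67 CPM (-1.05) and the chaperone HSPA9 by less (-0.77). Of 12 genes of ubiquinone synthesis, 5 rose, 2 fell and 5 did not pass, with a median of 0.06. COQ6, a flavin-dependent hydroxylase, fell (-0.89), and COQ7 (0.59) and PDSS1 (0.46), another hydroxylase and a subunit of the enzyme that makes the side chain, rose. Of 4 tested genes of flavin supply, 2 rose and 2 did not pass, with the mitochondrial carrier SLC25A32 up from 37.2 ± 0.3 to 64.7 ± 3.23 CPM (0.80). With total counts the medians were -0.48, -0.21 and -0.05 in the same order.

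Of 10 tested regulators of respiratory chain genes, 8 rose and 2 fell, with a median of 0.43, and with total counts 5 rose and 2 fell. The coactivator PPRC1 rose from 71.8 ± 2.72 to 186 ± 6.36 CPM (1.37) and PPARGC1B from 9.42 ± 1.68 to 29.7 ± 1.54 CPM (1.65). TFAM, which packages mitochondrial DNA, rose from 118 ± 2.68 to 186 ± 8.41 CPM (0.66). The 2 that fell, named after their values were seen, were GABPB2 (-1.12) and GABPB1 (-0.21), which pair with the ETS factor GABPA. PPARGC1A had 1 to 8 counts per library and was not tested. Of 16 genes of the outer membrane, protein import and the matrix, used as a reference for mitochondria at large, 12 rose, 3 fell and 1 did not pass, with a median of 0.36. The prohibitin PHB rose from 151 ± 6.54 to 329.8 ± 3.59 CPM (1.13) and the chaperonin HSPD1 from 2659 ± 1.13 to 5133 ± 128 CPM (0.95), and LONP1, the matrix protease, fell from 436 ± 4.58 to 135 ± 8.24 CPM (-1.69). Their median lay near that of the accessory subunits (0.41) and above that of the core subunits (-0.59), a difference that was not tested.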

How the data were processed

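Ribosome footprints were counted in 2 wild-type and 3 METTL18 knockout libraries of HAP1 cells. Raw counts deposited by the authors fill 14084 rows, each naming a transcript and its gene symbol. Per the submitters' processing notes, Bowtie and build hg38 were used, while the counting step and how it handled reads with several matches were not given in the sources used here. The labelled molecule is polyA RNA although the protocol describes footprints.

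The counts went into edgeR 4.0.16 under R 4.3.3 (TMM, filterByExpr with a minimum count of 10 and total of 15, robust quasi-likelihood fit, genotype as the only term, Benjamini-Hochberg over 11335 rows). An SE is the size of the log2 fold change over the square root of F. GENCODE on hg38 gave coordinates and coding lengths without the stop codon, and windows of 28 coding bases were looked up in all annotated transcripts. The fit was tested on simulated data.

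Members and lists were chosen with earlier results of these data known. Values by library are given for core subunits, NDUFAF factors, NDUFA4, the read-through gene and the 6 largest rises and falls of accessory subunits. Of other lists at most 3 genes with the smallest adjusted p are named. Regulators of respiratory chain genes and cell type markers were exempt from that limit. Some genes within this rule are counted in the lists but not reported here by name, in the text or the plots of members. DESeq2 1.42.0, limma-voom (limma 3.58.1), other scaling and filters, thinning, a replicate block and leaving out each library were alternatives.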

Additional observations from a re-analysis of the deposited data

How the results depend on the processing

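Main values are 22 members higher and 12 lower, and median log2 fold changes of 0.23 (subunits), -0.59 (core), 0.41 (accessory) and -0.01 (NDUFAF factors). Requiring a fold above 1.5 left 9 higher and 4 lower. Scaling by total counts gave 19 lower, medians of -0.04, -0.86, 0.14 and -0.28, and turned NDUFAF3 (-0.17), NDUFB7 (-0.17), NDUFB9 (-0.13), NDUFS3 (-0.12), NDUFS6 (-0.04), NDUFV1 (-0.23), NDUFV2 (-0.25) and NDUFV3 (-0.02), since it lowers all genes. With a mean CPM of at least 10 the first 3 medians were 0.17, -0.65 and 0.35, and NDUFV1 (-0.01) and NDUFV2 (-0.04) turned. Without a low-count filter the subunit, accessory and NDUFAF medians were 0.26, 0.44 and 0.01, and NDUFAF1 turned (0.01). Upper-quartile factors gave 0.19 and 0.37 for subunits and accessory subunits, with NDUFV2 at -0.02, and thinning the knockout libraries 0.21 and 0.39, with NDUFV1 and NDUFV2 both at -0.00. RLE factors and DESeq2 gave 0.22 for subunits. The causes of these smaller shifts were not tested.

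The deviations of same-numbered libraries correlated at 0.0418 and 0.0405 over 7982 genes. With only 2 wild-type libraries their deviations mirror each other, so this cannot decide whether the replicate numbers pair the libraries. With the replicate block 21 members were higher and 12 lower, the subunit median was 0.25 and the accessory median 0.44, and the call of NDUFS3 alone was lost among members. Leaving out each library in turn gave 20 to 22 members higher and 11 to 12 lower, and medians of 0.19 to 0.25 (subunits), -0.62 to -0.53 (core), 0.36 to 0.43 (accessory) and -0.11 to 0.06 (NDUFAF factors). NDUFAF1 ranged from -0.11 to 0.08, turning without METTL18 knockout replicate 1 (0.05) and without wild type replicate 2 (0.08). NDUFV1 ranged from -0.02 to 0.10, turning without wild type replicate 2, and NDUFV2 from -0.02 to 0.06, turning without METTL18 knockout replicate 2 (-0.01) and without wild type replicate 2 (-0.02). None of these passed. The share of counts on subunits differed by -0.0139 percentage points between groups (-0.0177 to -0.0101 with a library left out), and by 0.0997 in CPM after TMM.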
